A study of Mus musculus with 16 samples.

Results

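The antioxidant and glutathione enzymes of the epidermis were followed in aged mice in which the cytokines IL-17A and IL-17F had been blocked. The 56 genes, of 27179 gene identifiers in the count table, are those whose mouse symbol begins with Gsta, Gstm, Gstp, Gstt, Gsto, Mgst, Gpx, Prdx, Sod or Txnrd directly followed by a digit, or is Nqo1, Hmox1, Gclc, Gclm, Srxn1, Txn1, Cat, Nfe2l2, Keap1, Gsr or Gss. The rule uses names and no measured value. Bulk RNA-seq was done on epidermal cells of C57bl/6J mice that were 73 weeks old when treatment began. One group of 4 mice received blocking antibodies against IL-17A/F (anti-IL-17A/F), the other group of 4 mice a control IgG, both by intraperitoneal injection 3 times a week for 12 weeks. The sources name no genetic change in either group, so the groups differed by the antibody alone as far as the labels say. The cells were whole suspensions of dispase-separated epidermis with its hair follicles and sebaceous glands, not sorted cells, and the antibody reached the whole animal. In such bulk samples fewer cells of a type and less RNA per cell cannot be told apart.

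These enzymes protect cells from reactive oxygen and from reactive chemicals. Superoxide dismutases turn superoxide into hydrogen peroxide, which catalase, glutathione peroxidases and peroxiredoxins then remove. Glutathione, a tripeptide made by glutamate-cysteine ligase (Gclc and Gclm) and glutathione synthetase (Gss), supplies the electrons for the peroxidases and is coupled to foreign compounds by glutathione S-transferases. Thioredoxin and its reductases recharge the peroxiredoxins. Many of the genes are targets of NRF2 (gene Nfe2l2), a transcription factor that is held back by the adaptor KEAP1 and acts in keratinocytes under oxidative or chemical stress. NRF2 binds with a small MAF protein to the antioxidant response element, whose core is written here as TGACNNNGC, N being any base.

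The core was searched on both strands of RefSeq promoters (GRCm38.p6, 250 bases before to 50 after a gene's start), because it is the sequence through which NRF2 is known to reach these genes. Overlap with other motifs was not considered. Sequence outside these windows was not searched, so a member without a match may hold the core elsewhere. It was found for 10 of the 47 members with an entry, which is 21.3%, and for 3781 of all 27025 genes with an entry, which is 14.0%. Counted by windows, 10 of 60 member windows and 12.4% of all 32851 windows held it. The 10 members were Gsta3, Gstm5, Gstm7, Gclm, Mgst1, Nfe2l2, Prdx1, Sod1, Srxn1 and Txnrd1. Gclc, Gsr, Gsta4, Gstt2, Hmox1, Prdx6, Prdx6b, Sod3 and Gpx2-ps1 were the members without an entry. The matches of 6 members whose values are given below are shown with 10 bases on each side, 5′ to 3′ on the strand that carries the core, with the core in capitals:
Nfe2l2, chr2:75704885-75704913, minus strand: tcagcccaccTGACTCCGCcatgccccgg
Gclm, chr3:122245413-122245441, minus strand: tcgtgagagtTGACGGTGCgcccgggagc
Prdx1, chr4:116685456-116685484, minus strand: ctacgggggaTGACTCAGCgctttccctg
Srxn1, chr2:152105542-152105570, minus strand: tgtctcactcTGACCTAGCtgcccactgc
Txnrd1, chr10:82859104-82859132, minus strand: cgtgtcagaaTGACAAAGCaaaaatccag
Mgst1, chr6:138140461-138140489, minus strand: ccccgcctccTGACCGTGCcaagccccgc
Read along the gene, the first base of the core lay 240 bases before the start of Nfe2l2, 134 before that of Gclm, 133 before Prdx1, 92 before Txnrd1 and 56 before Mgst1, and 28 bases after that of Srxn1. A match describes letters in the window and not a bound site. Of the 10 members that carry it, 6 had a log2 fold change below 0 and 4 above 0, with a median of -0.03.

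The libraries held 42816157 to 52255040 counts in anti-IL-17A/F-treated mice and 50533151 to 53721153 counts in IgG-treated control mice. The 56 members took 0.308% to 0.336% of the counts in anti-IL-17A/F-treated mice and 0.300% to 0.345% in control mice, so their summed share overlapped between the groups. Keratinocyte markers were high in every library, at 21498 to 24228 CPM in treated and 20414 to 26741 CPM in control mice summed over 8 basal genes, and at 21865 to 24474 CPM in treated and 20235 to 25391 CPM in control mice over 7 suprabasal genes. A low-count filter kept 51 members for the test, among 16335 genes tested in all. Of the 5 that were not tested, Gpx5 and Gpx6, peroxidases known from the epididymis and the olfactory epithelium, had 0 of 404656455 counts over the 8 mice, which allows a level of up to 0.00741 CPM (3 counts). Gstt4 had 1 count, Gstm3 had 15 counts or 0.0371 CPM (95% exact Poisson interval 0.0207 to 0.0611) and the pseudogene Gpx2-ps1 had 77 counts or 0.190 CPM (0.150 to 0.238). CPM relates a gene's count to the library total, corrected by the library's TMM factor, except in these intervals, which use the plain total over 8 mice and cover counting error only.

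Members differed far more from each other than between the groups. Levels per length are given as RPKM, the CPM per kilobase of exon (GENCODE M21), averaged over 8 mice. Mgst1, a membrane-bound transferase and peroxidase of the endoplasmic reticulum and mitochondria, stood highest at 243 RPKM (193 to 309.8 over the mice). Catalase (Cat) had 183 RPKM (157 to 219.6) and Gpx1, the main cytosolic glutathione peroxidase, 167 RPKM (146 to 186). The range of Cat over the mice met those of both other genes. Within each mouse, Mgst1 was above Cat and above Gpx1 in 8 of 8, while Cat was above Gpx1 in 4 of 8, so that Cat and Gpx1 do not differ beyond their spread. Prdx5, a peroxiredoxin found in mitochondria, peroxisomes and cytosol, followed at 121 RPKM (111 to 131), below every mouse's value for Mgst1, Cat and Gpx1. Next came thioredoxin (Txn1) at 82.1 RPKM and Prdx1 at 63.9 RPKM, whose ranges did not meet. At the other end were extracellular superoxide dismutase (Sod3) at 0.215 RPKM, Gsta1 at 0.269 and Gstp2 at 0.445 RPKM. The transcription factor Nfe2l2 had 25.1 RPKM (23.3 to 27.1), above its adaptor Keap1 in every mouse at 18.5 RPKM (17.1 to 19.4).

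**Figure D1:**
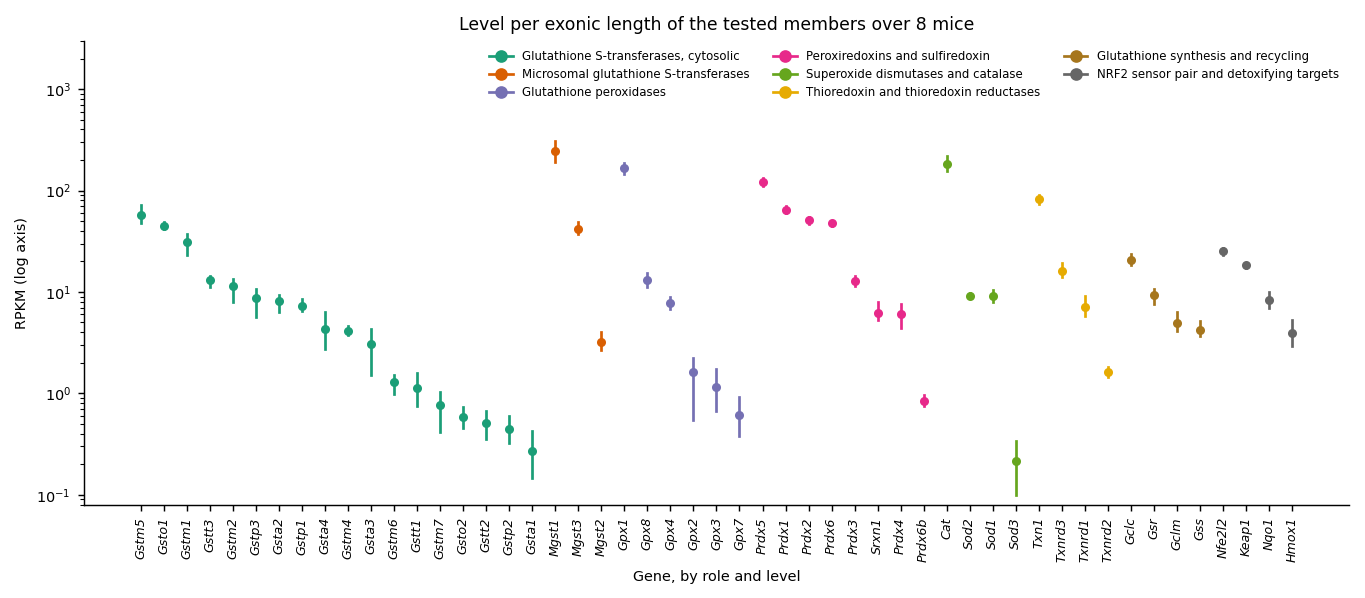
Level per exonic length of the 51 tested members, one column per gene, grouped by role and ordered by level within a role, on a log axis of RPKM. Points are means over all 8 mice and bars run from the lowest to the highest mouse, and Mgst1, Cat, Gpx1 and Prdx5 are the only genes with a mean above 100 RPKM (121 RPKM for Prdx5).

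Some of these levels are uncertain because reads that fit several places were not counted. More than 5% of the 50-base stretches of 13 members also occur in another gene, among them Gsta1 (90.5% shared, mostly with Gsta2), Gstp2 (54.3%, with Gstp1), Gpx4 (34.7%, with a pseudogene), Sod2 (21.0%) and Gstm1 (18.9%). Exons of 5 members overlap a gene on the opposite strand by more than 5% of their length, namely Prdx5 (19.1%), Gss (15.4%), Gstm5 (13.9%), Prdx2 (11.5%) and Keap1 (10.9%). The sources used here do not say whether the counting used strand. Reads were counted on the mm10 annotation built into featureCounts, while the lengths came from GENCODE M21. Where GENCODE M21 holds exons that were not counted, the RPKM is too low.

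The comparison asked which of these genes differed between anti-IL-17A/F-treated and IgG-treated aged epidermis. No member passed the test: 0 of 51 members had an adjusted p below 0.1 in the quasi-likelihood test of edgeR, as did 0 of all 16335 genes (0%), and the smallest adjusted p among the members was 0.984. DESeq2 called 0 members and 0.0673% of all genes. At an unadjusted edgeR p below 0.05, the 1 member was Hmox1, which was lower in anti-IL-17A/F-treated mice, against 1.57% of all genes lower and 2.45% higher. For 0 of 51 members were the 4 mice of one group all below or all above the other 4, which held for 1% of all genes on the lower side and 1.41% on the higher side. The log2 fold changes of anti-IL-17A/F over control IgG were below 0 for 30 of 51 members (58.8%), against 49.9% of all genes. Their median was -0.02, beside 9.3e-05 over all genes, and without control mouse 4 it was 0.01. They ran from -0.38 for Hmox1 to 0.32 for Gstt1, with 42 of 51 within 0.2 of 0. The standard error was below 0.2 for 40 members.

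**Figure D2:**
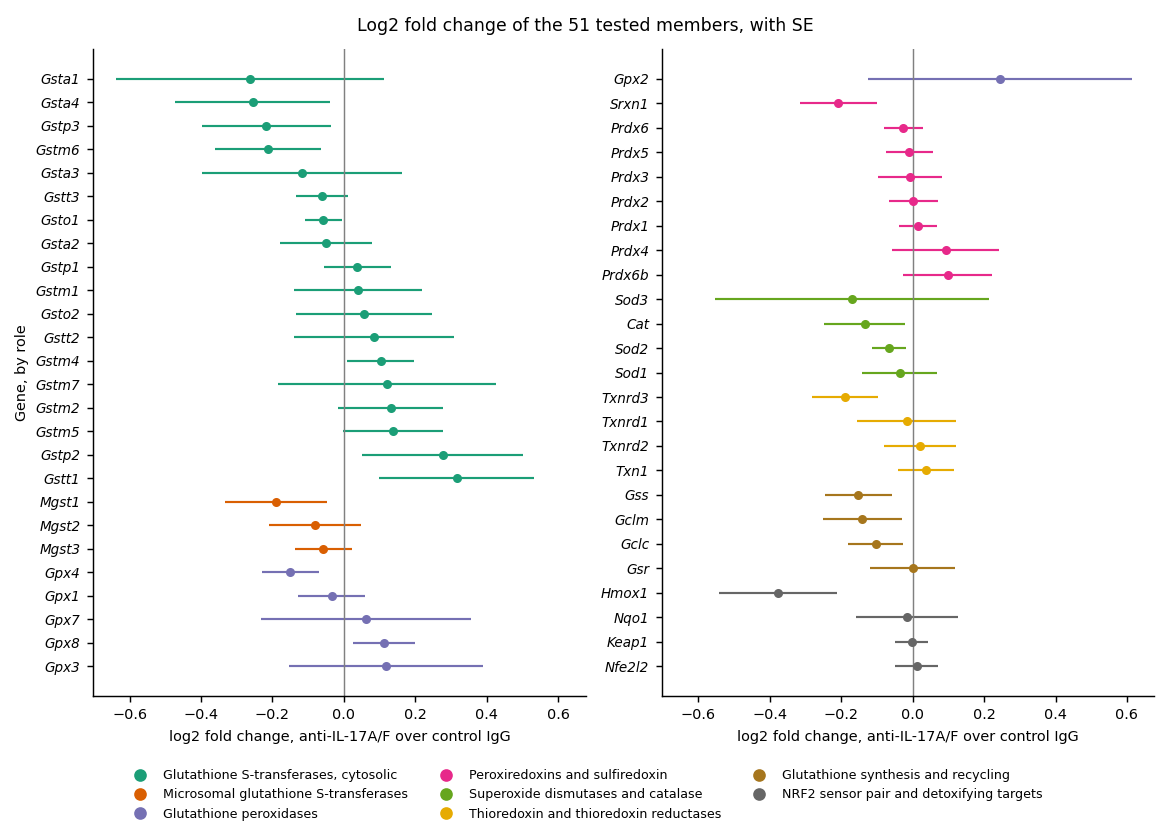
Log2 fold change (anti-IL-17A/F over control IgG) of the 51 tested members from edgeR, by role, with bars of 1 standard error and a line at 0. Hmox1 is farthest to the left at -0.38 and Gstt1 farthest to the right at 0.32, and no member passed the test.

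Among NRF2, its adaptor and the detoxifying targets, the regulators were level between the groups and Hmox1 differed most. Hmox1, heme oxygenase 1, which breaks down heme and is a classic stress-response gene (Entrez gene 15368, GRCm38 chr8:75093618-75100593), had 5.11, 5.37, 7.20 and 6.29 CPM in anti-IL-17A/F-treated mice, against 8.72, 5.92, 7.30 and 9.23 CPM in control mice. Control mice 1 and 4 stood above every treated mouse, control mouse 3 lay just above the highest treated mouse, and control mouse 2 lay inside the treated range. Its log2 fold change was -0.38 ± 0.17 (SE, edgeR adjusted p = 0.984), and -0.49 to -0.29 when each mouse was left out. It was -0.33 in batch 1 and -0.38 in batch 2, and each mouse had counts in both batches. Macrophages, which are known to make heme oxygenase, were followed by 8 markers, all measured and all with a log2 fold change below 0. Their summed level was 18.6, 12.4, 16.4 and 13.5 CPM in anti-IL-17A/F-treated mice, against 11.8, 12.8, 31.5 and 27.8 CPM in control mice, and their part in the Hmox1 values was not tested. Control mouse 1, among the highest for Hmox1, had the lowest of these sums. Csf1r was the most abundant of the 8 markers. A list of 7 Langerhans and dendritic cell markers, 6 with a log2 fold change below 0, was likewise highest in controls 3 and 4. Its sums were 518, 445, 480 and 419 CPM in treated and 358, 341, 689 and 670 CPM in control mice. Epcam was the most abundant of these 7 markers and the only one with a log2 fold change above 0, at 0.21. Which of these cells the macrophage list followed was not tested.

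Nfe2l2 averaged 95.5 ± 4.52 CPM in anti-IL-17A/F-treated mice and 94.8 ± 7.01 CPM in control mice (SD, n = 4 each). Keap1 averaged 87.0 ± 1.07 CPM in treated and 87.1 ± 4.59 CPM in control mice. The log2 fold changes of 0.01 ± 0.06 for Nfe2l2 and -0.0023 ± 0.05 for Keap1 were smaller than their errors, and both changed sign under other settings. Nqo1, the quinone reductase often read as a gauge of NRF2 activity, had 12.1, 13.1, 10.9 and 14.8 CPM in anti-IL-17A/F-treated mice, against 15.6, 11.0, 10.9 and 14.1 CPM in control mice. The mice of both groups ran over the same range, with control mouse 1 highest and control mouse 3 lowest, and the log2 fold change was -0.02 ± 0.14. Thus within this role 3 of 4 genes had a value below 0, and the median was -0.01.

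**Figure D3:**
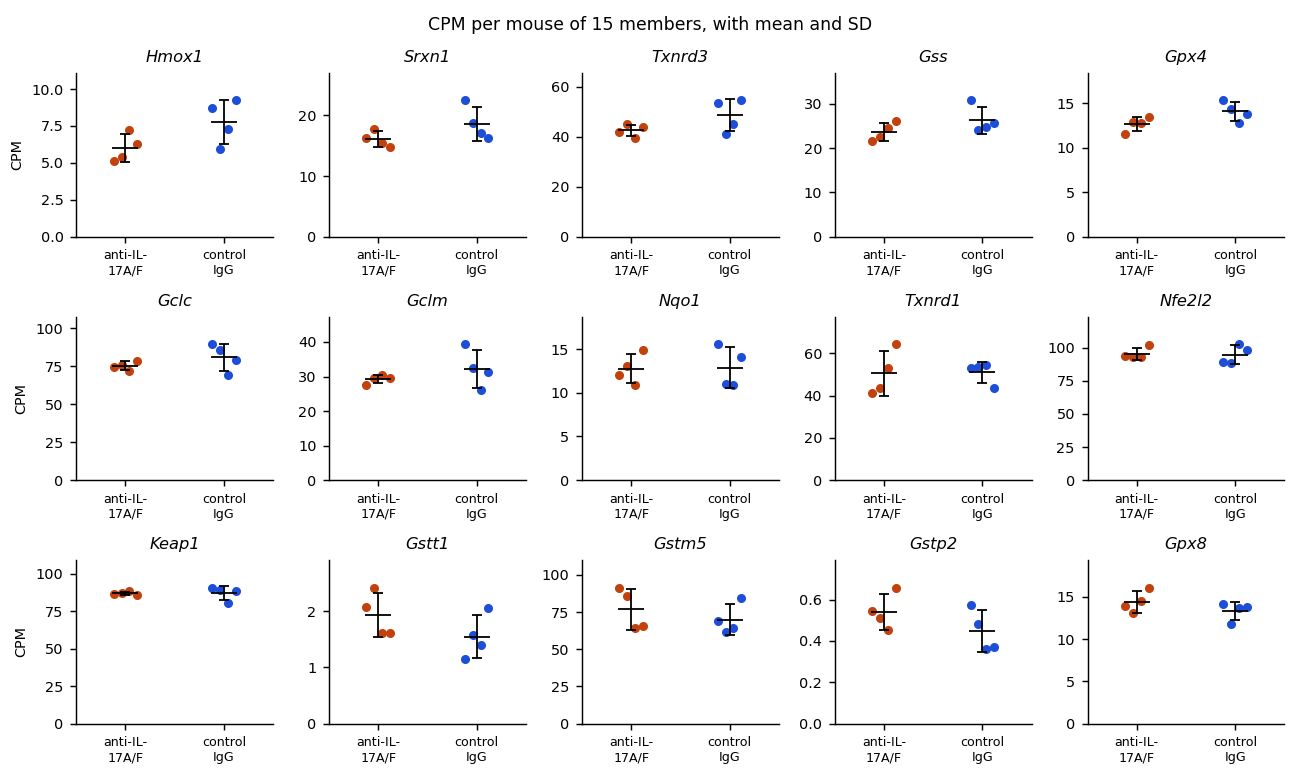
CPM of 15 members in each mouse, anti-IL-17A/F left and control IgG right in each panel, with axes from 0 and points in mouse order 1 to 4. Horizontal marks are means and bars are SD over 4 mice, and the groups overlap in every panel, Hmox1 through the control mouse at 5.92 CPM.

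Of the glutathione synthesis genes, Gclc, Gclm and Gss had log2 fold changes below 0, and none passed the test. Gclc (Entrez gene 14629, GRCm38 chr9:77754535-77794489), the catalytic subunit of glutamate-cysteine ligase and so the rate-limiting step, had 74.8, 76.1, 71.7 and 78.6 CPM in anti-IL-17A/F-treated mice, against 89.6, 85.6, 69.3 and 79.3 CPM in control mice. Gclm, its modifier subunit, had 27.7, 29.5, 30.3 and 29.7 CPM in treated and 39.4, 32.3, 26.1 and 31.3 CPM in control mice. In both genes control mouse 1 was highest and control mouse 3 lowest, so that the treated mice lay within the span of the controls and were closer together. The log2 fold change was -0.10 ± 0.08 for Gclc and -0.14 ± 0.11 for Gclm, and leaving out control mouse 1 gave -0.05 and -0.03, leaving out control mouse 3 -0.17 and -0.23. Gss, which adds the glycine, had 21.5, 22.4, 24.5 and 26.1 CPM in anti-IL-17A/F-treated mice, against 30.8, 24.0, 24.8 and 25.6 CPM in control mice. Its log2 fold change was -0.15 ± 0.09 and -0.06 without control mouse 1, the one mouse above the rest. Gsr, the reductase that regenerates glutathione, averaged 25.7 ± 3.11 CPM in treated and 25.7 ± 3.70 CPM in control mice. The median log2 fold change of the 4 genes was -0.12, with -0.06 without control mouse 1 and -0.18 without control mouse 3.

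Glutathione peroxidases went in both directions. Gpx4 (Entrez gene 625249, GRCm38 chr10:80047166-80056439), which reduces lipid peroxides in membranes and holds back ferroptosis, had 11.6, 12.9, 12.8 and 13.5 CPM in anti-IL-17A/F-treated mice, against 15.3, 14.4, 12.8 and 13.8 CPM in control mice. The log2 fold change was -0.15 ± 0.08 (edgeR adjusted p = 0.984), with -0.07 in batch 1 and -0.23 in batch 2, and control mouse 3 lay among the treated mice. Gpx8, a peroxidase of the endoplasmic reticulum, had 14.0, 13.1, 14.5 and 16.1 CPM in treated and 14.1, 11.8, 13.7 and 13.7 CPM in control mice, a log2 fold change of 0.11 ± 0.09, with the highest value in treated mouse 4 and the lowest in control mouse 2. Without treated mouse 4 it was 0.05. Gpx1 had 243, 209.7, 255 and 241 CPM in anti-IL-17A/F-treated mice, against 210.2, 227, 269 and 265 CPM in control mice. Here controls 1 and 2 were low and controls 3 and 4 high, and the log2 fold change was -0.03 ± 0.09. The low-level Gpx2, Gpx3 and Gpx7 varied most from mouse to mouse among the peroxidases, Gpx2 with 6.13, 5.74, 4.04 and 6.91 CPM in treated and 6.12, 1.75, 4.20 and 7.19 CPM in control mice. Of the 6 tested peroxidases 4 had a log2 fold change above 0 and 2 below it, with a median of 0.09. Without control mouse 4 the median was 0.16. Without control mouse 2 the pseudogene Gpx2-ps1 also passed the filter, and 5 of 7 genes were below 0 with a median of -0.06.

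Peroxiredoxins differed little between the groups. Prdx5 had 263, 251, 281 and 237 CPM in anti-IL-17A/F-treated mice, against 258, 273, 239.5 and 269 CPM in control mice, with a log2 fold change of -0.01 ± 0.07. The highest and the lowest mouse were both treated. Prdx1 averaged 195 ± 12.5 CPM in treated and 193 ± 3.33 CPM in control mice, and Prdx2 158 ± 12.8 and 157 ± 9.30 CPM in the same order. Srxn1, sulfiredoxin (Entrez gene 76650, GRCm38 chr2:152105524-152111376), restores peroxiredoxins that peroxide has overoxidised and is a known NRF2 target. It had 16.3, 17.8, 15.5 and 14.8 CPM in anti-IL-17A/F-treated mice, against 22.5, 18.7, 17.1 and 16.2 CPM in control mice, so that only controls 1 and 2 stood above every treated mouse. The log2 fold change was -0.21 ± 0.11 (edgeR adjusted p = 0.984), with -0.17 in batch 1 and -0.23 in batch 2, and -0.10 without control mouse 1. The peroxiredoxins and sulfiredoxin had 4 of 8 values below 0 and a median of -0.0024.

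Of the thioredoxin system, the reductase Txnrd3, which is also known as thioredoxin glutathione reductase and is best known from the testis, had the smallest p. It had 41.8, 45.0, 39.6 and 43.7 CPM in anti-IL-17A/F-treated mice, against 53.4, 41.2, 45.0 and 54.5 CPM in control mice. Controls 1 and 4 were high and controls 2 and 3 lay among or next to the treated mice. The log2 fold change was -0.19 ± 0.09 (edgeR adjusted p = 0.984), with -0.15 in batch 1 and -0.22 in batch 2. Txnrd1, the cytosolic reductase and an NRF2 target, had 41.0, 43.7, 53.0 and 64.4 CPM in treated and 52.9, 53.4, 54.4 and 43.8 CPM in control mice, and the treated mice held both the lowest and the highest value. Its log2 fold change was -0.02 ± 0.14. Thioredoxin itself (Txn1) averaged 87.4 ± 5.31 CPM in treated and 85.2 ± 8.93 CPM in control mice, with a log2 fold change of 0.04 ± 0.08.

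Cat and Mgst1, with the highest levels per length of all members, differed among the control mice more than between the groups. Cat (Entrez gene 12359, GRCm38 chr2:103453904-103485153), which splits hydrogen peroxide in peroxisomes, had 427, 472, 414 and 507 CPM in anti-IL-17A/F-treated mice, against 553, 574, 411 and 461 CPM in control mice. Mgst1 (Entrez gene 56615, GRCm38 chr6:138140527-138156755) had 388, 437, 486 and 518 CPM in treated and 624, 578, 402 and 481 CPM in control mice. In both genes controls 1 and 2 stood above all treated mice, while controls 3 and 4 lay inside the treated range or below it. The log2 fold change was -0.13 ± 0.11 for Cat and -0.19 ± 0.14 for Mgst1 (edgeR adjusted p = 0.984 for both). Without control mouse 3 they were -0.22 and -0.30, and without the control mouse highest for each gene -0.06 and -0.09. The group means of Sod1 and Sod2 were closer together. Sod1, the cytosolic enzyme, averaged 35.3 ± 4.12 CPM in treated and 36.2 ± 4.42 CPM in control mice. Sod2, the mitochondrial one, averaged 89.9 ± 3.93 and 94.1 ± 3.77 CPM in the same order. Sod3, with few counts, varied widely at 0.758 ± 0.264 CPM in treated and 0.851 ± 0.363 CPM in control mice. Its log2 fold change was -0.17 ± 0.38. All 4 dismutase and catalase genes and all 3 microsomal transferases had values below 0, with medians of -0.10 and -0.08. Without treated mouse 3 only 2 of the 4 dismutase and catalase genes were below 0, with a median of -0.04, and without treated mouse 4 the medians were -0.16 for these and -0.15 for the microsomal transferases.

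Summed markers of sebaceous gland cells, which are rich in lipid enzymes, were high in the same control mice. Summed over 11 sebocyte markers, none of which was at 0, the level was 9447, 12374, 11517 and 13064 CPM in anti-IL-17A/F-treated mice, against 16504, 17765, 10957 and 11062 CPM in control mice. The sum ran highest in controls 1 and 2, as Cat, Mgst1 and Gclc did, and 9 of the 11 genes had a log2 fold change below 0. Scd1, the most abundant marker, had 5136, 7177, 7416 and 7809 CPM in treated and 10657, 11396, 6628 and 6168 CPM in control mice. Mc5r, Elovl3, Dgat2, Far2 and Pparg were also highest in controls 1 and 2. Awat2, at 42.0 CPM in control 1, was not, nor was Krt79, at 2404 CPM in control 4 and 2242 CPM in control 2. Scd3, Fasn and Plin2 were not either. Control 1 had 322 CPM of Scd3 and 1301 CPM of Fasn, against 378 and 1317 CPM in treated mouse 2. Control 2 had 332 CPM of Plin2, against 376 CPM in treated mouse 4. Basal keratinocyte markers (8, none at 0) summed to 24228, 21498, 23084 and 22832 CPM in treated and 20414, 22004, 24779 and 26741 CPM in control mice. They were lowest in control mouse 1 and highest in controls 3 and 4, as Gpx1 was lowest in treated mouse 2 and control mouse 1 and highest in controls 3 and 4. Markers of the cornified envelope (9, none at 0) had 8 of 9 values below 0, with sums of 168, 171, 230.1 and 348 CPM in treated and 397, 267, 316 and 331 CPM in control mice. The part of these cell types in the members' values was not tested.

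**Figure D4:**
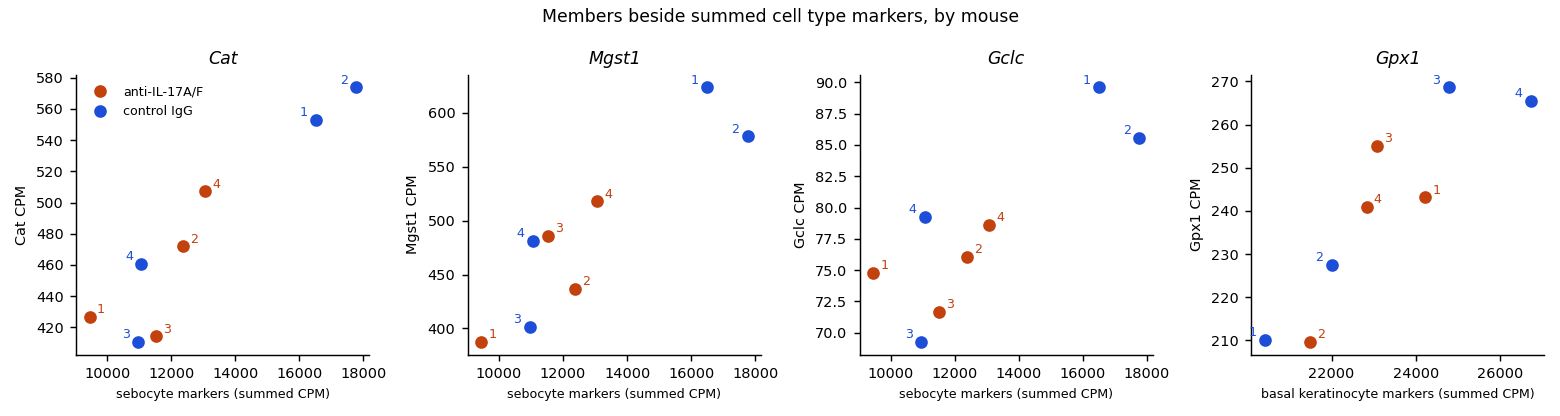
CPM of Cat, Mgst1 and Gclc beside the summed CPM of 11 sebocyte markers, and of Gpx1 beside that of 8 basal keratinocyte markers, 1 point per mouse with its number, anti-IL-17A/F in orange and control IgG in blue, on axes that do not start at 0. Controls 1 and 2 lie at the upper right of the first 3 panels, with 16504 and 17765 CPM of sebocyte markers.

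Cytosolic glutathione S-transferases lie in clusters of gene copies, and neighbours differed strongly in level. The 7 Gstm genes span chr3:107895854-108045179 (149 kb, GRCm38). Along it Gstm5 had 57.4 RPKM, Gstm7 0.763, Gstm6 1.28, Gstm3 0.0291, Gstm2 11.4, Gstm1 31.1 and Gstm4 4.14 RPKM. The cluster thus held both the most abundant cytosolic transferase and a gene at the limit of detection. Gstt genes on chr10:75774117-75837419 ran from 13.1 RPKM for Gstt3 down to the 1 count of Gstt4. On chromosome 19, Gstp1 and Gstp3 were at 7.28 and 8.79 RPKM, and Gsto1, which also reduces dehydroascorbate, at 44.3 RPKM beside 0.578 RPKM for Gsto2.

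Between the groups, the transferases had values on both sides of 0. Gstt1 had 2.07, 2.42, 1.61 and 1.61 CPM in anti-IL-17A/F-treated mice, against 1.15, 1.58, 1.39 and 2.05 CPM in control mice, the largest positive log2 fold change of the members at 0.32 ± 0.22 (edgeR adjusted p = 0.984). Its groups overlapped through control mouse 4, and it was 0.19 without treated mouse 2 and 0.48 without control mouse 4. Gstp2 had 0.547, 0.511, 0.451 and 0.658 CPM in treated and 0.574, 0.482, 0.363 and 0.371 CPM in control mice, a log2 fold change of 0.28 ± 0.23 at a level under 1 CPM and with shared sequence, and 0.17 to 0.42 when each mouse was left out. Gstm5 had 91.5, 85.9, 64.0 and 65.8 CPM in anti-IL-17A/F-treated mice, against 69.2, 61.4, 64.0 and 84.6 CPM in control mice, with treated mice 1 and 2 and control mouse 4 high and the rest close together. Gstm4 averaged 7.32 ± 0.445 CPM in treated and 6.82 ± 0.554 CPM in control mice. The log2 fold change was 0.14 ± 0.14 for Gstm5 and 0.10 ± 0.09 for Gstm4. Without treated mouse 1 they were 0.04 and 0.06, and without control mouse 4 0.24 and 0.16. Of 6 tested Gstm genes 5 had values above 0 (median 0.11), and of 4 Gsta genes 4 had values below 0 (median -0.19), and none passed the test. Gsta3, an alpha-class enzyme, varied widely from mouse to mouse, with 6.64, 14.4, 11.4 and 18.7 CPM in treated and 17.4, 14.8, 11.5 and 11.7 CPM in control mice. Over the 18 tested cytosolic transferases 8 values were below 0 and the median was 0.04, while without control mouse 3 it was -0.06.

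Set against each other by mouse, the members were spread unevenly over the animals. Control mouse 4 had the highest value of the 8 mice for 12 of 51 members (23.5%, against 12.9% of all genes) and the lowest for 0 (10.9% of all genes). Control mouse 1 and treated mouse 4 were each highest for 11 members (21.6%, against 14.3% and 16.9% of all genes). Treated mouse 1 was lowest for 9 members (17.6%, against 10.3%), and treated mouse 2 highest for 2 (3.92%, against 12.3%). Averaged over the members, log2 CPM stood above the mean of the 8 mice by 0.08 in treated mouse 4, 0.09 in control mouse 4 and 0.07 in control mouse 1. It stood at -0.12 in treated mouse 3 and -0.08 in control mouse 3. Mice of the same group thus lay on both sides of the mean.

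**Figure D5:**
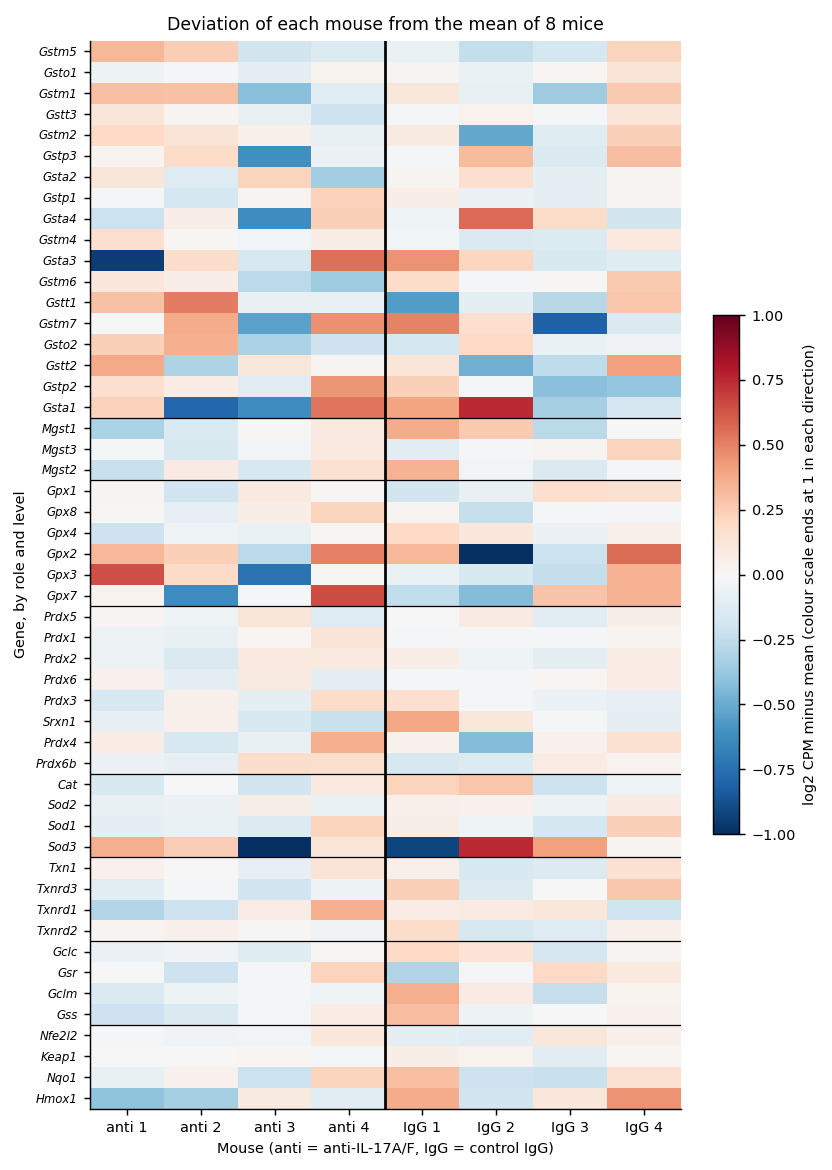
Log2 CPM of the 51 tested members in each mouse minus the gene's mean over 8 mice, anti-IL-17A/F mice in the left 4 columns and control IgG mice in the right 4, rows by role (black lines) and level, colours red above and blue below the mean. Abundant rows such as the peroxiredoxins are pale, and strong colours sit in low rows such as Sod3, Gpx2 and Gsta1, in mice of both groups.

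A wider list of 63 genes that supply, use or accompany glutathione and thioredoxin gave the same answer for the test, since 0 of its 62 tested genes were called in either direction. Of these, 42 had a log2 fold change below 0 (67.7%, against 49.9% of all genes), with a median of -0.06. At an unadjusted edgeR p below 0.05 there were 7 of 62, all lower in anti-IL-17A/F-treated mice, against 1.57% of all genes lower. Abcc2, with 11 counts, was not tested.

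The smallest p belonged to Ggt5, a glutamyl transferase that cleaves glutathione conjugates outside the cell, with 2.70, 2.51, 2.77 and 2.15 CPM in anti-IL-17A/F-treated mice, against 3.25, 3.18, 3.73 and 4.32 CPM in control mice. Its groups did not overlap, and the log2 fold change was -0.52 ± 0.14 (edgeR adjusted p = 0.984). Slc7a11, the cystine carrier that feeds glutathione synthesis and a known NRF2 target, had 0.961, 0.697, 0.746 and 0.832 CPM in treated and 1.62, 1.00, 0.993 and 1.51 CPM in control mice. Every treated mouse was below every control mouse, with a log2 fold change of -0.66 ± 0.22 (edgeR adjusted p = 0.984). The gap was narrow at this low level, with 0.961 CPM in treated mouse 1 against 0.993 CPM in control mouse 3. Abcc1, an exporter of glutathione conjugates, had 245, 246, 244 and 253 CPM in anti-IL-17A/F-treated mice, against 266, 268, 259 and 268 CPM in control mice, again with no overlap and with a log2 fold change of -0.10 ± 0.04. Abcc4, another exporter of that family, averaged 75.4 ± 3.84 CPM in treated and 86.1 ± 7.80 CPM in control mice, at -0.19 ± 0.07, and -0.13 without control mouse 2. These 4 were the genes of smallest p among those with values below 0, and none passed the adjusted test. The groups did not overlap for 3 of the 62 tested genes of the wider list, all lower. The same held for 1% of all genes on the lower side.

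Among values above 0, the smallest p belonged to Glrx2, a mitochondrial glutaredoxin, with 35.1 ± 0.951 CPM in anti-IL-17A/F-treated mice and 33.1 ± 1.47 CPM in control mice and a log2 fold change of 0.08 ± 0.05. The iron store subunit Ftl1 averaged 44.4 ± 2.69 CPM in treated and 40.2 ± 4.88 CPM in control mice, at 0.14 ± 0.09. Pirin (Pir) was at 0.20 ± 0.14 and Chac1, which degrades glutathione, at 0.26 ± 0.22 with under 1 CPM on average in both groups. All 4 overlapped between the groups. When each mouse was left out, the values were 0.07 to 0.21 for Ftl1, 0.13 to 0.30 for Pir and 0.14 to 0.40 for Chac1.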

How the data were processed

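Poly(A) RNA of epidermal cells from 8 mice was sequenced from stranded libraries. Per the labels and the methods, the authors aligned reads to mm10 with STAR 2.5.2b and counted them with featureCounts, counting a read for every gene it overlapped, leaving out reads that fit several places and keeping duplicates. The authors deposited raw counts for each Entrez gene in 16 columns, 2 batches for every library. The 2 columns of a mouse differed about as much as sampling noise (chi-square per gene 0.996 to 1.06, against 12.1 to 41.4 between mice of a group) and were summed, leaving 4 mice per group. Symbols and coordinates came from RefSeq (GRCm38.p6, 25275 of 27179 identifiers matched) and exon lengths from GENCODE M21. Shared stretches were 50 bases long.

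The main test was the quasi-likelihood F-test in edgeR 4.0.16, run under R 4.3.3 with TMM factors and filterByExpr (minimum count 10, minimum total 15), two-sided, adjusted by Benjamini-Hochberg over 16335 genes and called below 0.1. Errors of fold changes are standard errors. DESeq2 1.42.0, limma-voom (limma 3.58.1), other filters and factors, single batches, 16 separate runs, a replicate block and leaving out each mouse were alternatives. In counts simulated with the spread that edgeR estimated from these data, edgeR and limma-voom kept false calls near their threshold. DESeq2 made more of them than its threshold allows, and its calls are given only as an alternative. Counts simulated this way may favour edgeR, so they do not rank the methods. The experimental batch that the study's model included is not identified in the labels, which give sequencing batches alone.

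Members and lists were chosen with earlier results of these data known. Fold changes are given for called members, the 5 per direction with the smallest p, the highest of each role by level, Nfe2l2, Keap1, Nqo1, Hmox1, Gclc, Gclm, Srxn1 and Txnrd1, and up to 4 related genes per direction. Other members are given by levels and counts. Selenocysteine positions in the proteins were planned and not analysed here. Totals of 42816157 to 53721153 counts make counting error small for most members. The p-values set the difference between the groups against the spread between the mice.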

Additional observations from a re-analysis of the deposited data

Results flagged for a closer look

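Among the members and related genes named, 2 values lay far from the other 3 mice of their group, by a gap test that chance meets in about 1 in 20 groups (58 groups were examined). Nfe2l2 was at 102 CPM in anti-IL-17A/F-treated mouse 4, against 92.7 to 93.8 CPM in the other treated mice. Txnrd1 was at 43.8 CPM in control mouse 4, against 52.9 to 54.4 CPM in the other control mice.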

How the results depend on the processing

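Under all 18 alternatives (10 settings and 8 leave-one-out fits) 0 members were called. Over all genes the count was 0 in the edgeR fit, 11 with DESeq2 and 17 with the 16 runs kept apart and a batch term, and 0 in the others, so no member was among those. The causes were not tested. The median over members stayed within 0.1 of 0, from -0.05 to 0.01 when each mouse was left out. 0 of the group medians moved by more than the spread between mice of a group. Leaving out 1 mouse, or refitting the same mice, can hardly exceed that limit, so no conclusion is drawn from it. Over the fits without 1 mouse, the median of the cytosolic transferases ranged from -0.06 to 0.06, of the peroxidases from -0.06 to 0.16, of the peroxiredoxins from -0.03 to 0.03, of the thioredoxin genes from -0.08 to 0.03 of the NRF2 group from -0.06 to 0.02, of glutathione synthesis from -0.18 to -0.06, of the dismutases and catalase from -0.16 to -0.04 and of the microsomal transferases from -0.15 to -0.05.

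When each mouse was left out, 23 of the 51 tested members kept their sign in all 8 fits and 28 changed it in at least 1. Of the 21 members named by rule, which include those of smallest p, 14 kept their sign under every alternative, as did the 8 related genes. The other 7 of the 21 changed sign near 0 when 1 mouse was left out: Gpx1 (-0.094 to 0.021), Keap1 (-0.039 to 0.022), Nfe2l2 (-0.024 to 0.052), Nqo1 (-0.098 to 0.093), Prdx5 (-0.052 to 0.029), Txn1 (-0.0043 to 0.098) and Txnrd1 (-0.155 to 0.074). Keap1 was also above 0 with a mean CPM of at least 1 (0.00049), limma-voom (0.0034), batch 1 (0.0043) and the 16 runs (0.0085). Nfe2l2 was below 0 with limma-voom (-0.017) and in batch 2 (-0.0070), Nqo1 above 0 in batch 2 (0.025) and Prdx5 above 0 with limma-voom (0.0014).

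With the replicate number as a block 0 genes were called and the median over members was -0.01. Same-numbered mice did not deviate together (correlation from -0.27 to 0.25), so the numbers were not taken as pairs. Counting error limits the 4 tested members under 1 CPM.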
